A study of Mus musculus with 21 samples.

Results

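The interleukin-1 family genes described here are Il1a, Il1b, Il1rn and Il18, which are 4 of the 16593 genes named on the array and are read by 6 of its 25697 probes. They were chosen by name, as the genes whose probes the array's annotation assigns to these symbols. Il1a, Il1b and Il18 have 1 probe each and Il1rn has 3. All 4 genes passed the filter on dim probes and entered the tests. Il1a and Il1b encode the agonists interleukin-1α and interleukin-1β, which signal through the same receptor. Il1rn encodes the interleukin-1 receptor antagonist, a secreted protein that occupies that receptor without signalling. Il18 encodes interleukin-18, which acts on a receptor of its own. Interleukin-1β and interleukin-18 are made as inactive precursors that caspase-1 cuts in the inflammasome, so that transcript, as measured here, is only the first step of their control. In dendritic cells Il1a and Il1b are known as genes that Toll-like receptor signals switch on through NF-kB, whereas Il18 is known for transcript that is present before stimulation.

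Bone marrow of C57Bl6 mice was the source of the cells, which were grown into dendritic cells and measured on 21 Illumina bead arrays. The genotypes were crel-/-relb-/-, which lacks c-Rel and RelB, relb-/-, which lacks RelB, and wild type (WT). Both subunits belong to the NF-kB family of transcription factors, and both mutant genotypes share the relb-/- defect. Cells lacking only c-Rel were not analysed here. Every genotype has 1 array for each of 7 conditions, namely unstimulated cells (0 h) and cells stimulated for 1, 8 or 24 h. The stimulus was either CpG, DNA that is sensed by TLR9, or Pam3CSK4, a lipopeptide sensed by TLR2. Nothing in the labels tells whether the arrays of a genotype are from 1 culture or several. For genotypes, a p-value therefore measures how constant a difference was over conditions. For times and agents, it measures how constant a difference was over the genotypes.

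All values are the authors' normalized intensities. On this scale the median of all probes on all arrays was 47.3, which serves as the mark of a dim probe. Of the targeted genes, Rel measured 33.6 to 45.5 on the crel-/-relb-/- arrays, against 101 to 214 on relb-/- and 61.1 to 207 on WT arrays. Relb measured 60.6 to 180 on crel-/-relb-/- and 65.9 to 153 on relb-/- arrays, against 148 to 267 on WT arrays. The sources used here do not place these probes inside or outside the deleted sequence, and a probe outside it checks nothing. One array was noisier than the rest, that of crel-/-relb-/- cells after 24 h of CpG, with a residual SD of 0.189 on the log2 scale against 0.0966 to 0.141 for the other 20 arrays. Of 11 dendritic cell markers, 9 were above the median on at least 1 array, while the probes of Flt3 and Xcr1 were below it on every array.

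The promoters are shown because Il1a and Il1b moved together on these arrays and Il1rn followed another course. They are the 250 bases before each gene's start in RefSeq's GRCm38.p6 annotation, printed 5′ to 3′ on the gene's strand, and all 4 genes matched an entry. Il1a starts after chr2:129309973-129310222 on the minus strand, Il1b after chr2:129371140-129371389 on the minus strand, and Il18 after chr9:50554450-50554699 on the plus strand. Il1rn has 3 starts in the table, and the windows of the first, chr2:24336610-24336859, and of the second, chr2:24345041-24345290, both on the plus strand, are printed. Capitals mark every match, on either strand, to an NF-kB type motif (GGG, any 5 bases, CC), an AP-1 type motif (TGANTCA), an interferon response type motif (GAAA, any 2 bases, GAAA) or a TATA box (TATAAA).
Il1a: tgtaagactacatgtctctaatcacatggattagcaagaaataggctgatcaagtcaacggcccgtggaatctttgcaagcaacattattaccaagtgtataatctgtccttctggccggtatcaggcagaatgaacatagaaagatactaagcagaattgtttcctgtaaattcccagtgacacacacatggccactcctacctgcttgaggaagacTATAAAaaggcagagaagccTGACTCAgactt
Il1b: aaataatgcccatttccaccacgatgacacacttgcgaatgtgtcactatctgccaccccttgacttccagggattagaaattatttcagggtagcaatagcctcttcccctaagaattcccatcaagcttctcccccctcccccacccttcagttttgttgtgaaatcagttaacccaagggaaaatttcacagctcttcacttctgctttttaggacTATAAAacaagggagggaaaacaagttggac
Il1rn, first start: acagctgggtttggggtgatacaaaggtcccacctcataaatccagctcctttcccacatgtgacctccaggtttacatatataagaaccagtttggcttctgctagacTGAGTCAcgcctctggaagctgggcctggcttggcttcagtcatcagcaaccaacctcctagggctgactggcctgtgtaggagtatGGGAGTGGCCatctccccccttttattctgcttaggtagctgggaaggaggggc
Il1rn, second start: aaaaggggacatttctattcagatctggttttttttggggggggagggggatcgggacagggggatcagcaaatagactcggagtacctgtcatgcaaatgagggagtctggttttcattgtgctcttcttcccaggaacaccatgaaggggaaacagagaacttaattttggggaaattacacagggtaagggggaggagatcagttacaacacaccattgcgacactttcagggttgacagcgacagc
Il18: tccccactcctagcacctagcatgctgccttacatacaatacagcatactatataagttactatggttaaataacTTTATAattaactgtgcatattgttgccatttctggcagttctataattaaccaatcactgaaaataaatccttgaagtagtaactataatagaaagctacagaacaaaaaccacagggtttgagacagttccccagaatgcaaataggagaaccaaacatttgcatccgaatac

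The windows of Il1a and Il1b each hold a TATA box, 32 and 31 bases before the start. TATAAA occurs in 12.4% of the 32851 RefSeq promoter windows of the same length. The Il1a window also holds TGACTCA 12 bases before the start, and the first Il1rn window holds TGAGTCA 141 bases before it; 6.75% of all windows hold this motif. The first Il1rn window holds GGGAGTGGCC 54 bases before the start, a match that 45.8% of all windows have. The Il18 window holds TATAAA on the minus strand, read as TTTATA in the printed strand, 175 bases before the start. No window of the 4 genes held the interferon response type motif, found in 2.98% of windows. The printed window at the second Il1rn start held none of the 4 motifs, while that of the third start, chr2:24345121-24345370, which overlaps it and is not printed, holds an NF-kB type match, GGGTTTTTCC, 51 bases before its start. A match describes these letters only, and a window without a match says nothing about a factor's binding elsewhere.

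Stimulation raised both agonist transcripts in all 3 genotypes, and the crel-/-relb-/- cells reached the lowest Il1b level in each of the 6 stimulated conditions. In crel-/-relb-/- cells, Il1b measured 452 at 0 h, then 277, 2633 and 837 at 1, 8 and 24 h with CpG, and 2067, 4058 and 1852 at 1, 8 and 24 h with Pam3CSK4. In relb-/- cells, Il1b measured 539 at 0 h, then 517, 5259 and 1304 with CpG, and 4357, 10668 and 7114 with Pam3CSK4 at the same times. In WT cells, Il1b measured 391 at 0 h, then 315, 5589.9 and 1019 with CpG, and 3151, 11043 and 6025 with Pam3CSK4. In all 3 genotypes Il1b was at its highest at 8 h under both agents, and at 1 h it was above its 0 h level with Pam3CSK4 and below it with CpG. The genotypes' ranges overlapped, because each spans both unstimulated and stimulated cells.

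Il1a followed a similar course, except that with Pam3CSK4 it was already near its peak at 1 h. In crel-/-relb-/- cells, Il1a measured 709 at 0 h, then 476, 2404 and 1299 with CpG, and 2983, 2465 and 1631 with Pam3CSK4. In relb-/- cells, Il1a measured 657 at 0 h, then 545, 3017 and 1173 with CpG, and 4819.9, 5372 and 4204 with Pam3CSK4. In WT cells, Il1a measured 423 at 0 h, then 422, 3568 and 1197 with CpG, and 5089, 6253 and 3462.5 with Pam3CSK4. Before stimulation the crel-/-relb-/- array was the highest for Il1a and the WT array the lowest, and at 8 h with either agent this order was turned round. At 24 h with CpG the 3 genotypes lay within 1173 to 1299.

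Il1rn, the antagonist gene, was higher at 8 and 24 h than at 0 h with both agents in all 3 genotypes. Its brightest probe, used in the tests, measured 684.5 at 0 h in crel-/-relb-/- cells, then 629, 2822 and 3562 with CpG, and 1008, 1894 and 1326 with Pam3CSK4. In relb-/- cells it measured 561 at 0 h, then 527, 1743.5 and 2156 with CpG, and 831, 1497 and 1836 with Pam3CSK4. In WT cells it measured 466.5 at 0 h, then 446, 1909 and 1519 with CpG, and 642, 1690.2 and 1209 with Pam3CSK4. Between 8 and 24 h it was higher at 24 h in relb-/- cells with both agents and in crel-/-relb-/- cells with CpG, and lower at 24 h in the other 3 combinations. The crel-/-relb-/- array was the highest of the 3 genotypes in 6 of 7 conditions, the exception being 24 h with Pam3CSK4, where the relb-/- array was highest.

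The Il18 probe read above the median of all values on 21 of 21 arrays but close to it, so that its fold changes are understated. In crel-/-relb-/- cells, Il18 measured 57.5 at 0 h, then 56.2, 83.7 and 73.2 with CpG, and 59.0, 75.6 and 68.7 with Pam3CSK4. In relb-/- cells, Il18 measured 67.8 at 0 h, then 61.3, 73.2 and 112 with CpG, and 78.5, 80.2 and 126 with Pam3CSK4. In WT cells, Il18 measured 48.4 at 0 h, then 60.1, 66.3 and 82.3 with CpG, and 55.6, 64.9 and 69.4 with Pam3CSK4. The relb-/- array was the highest in 6 of 7 conditions, and at 24 h both relb-/- arrays stood above every other array.

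**Figure D1:**
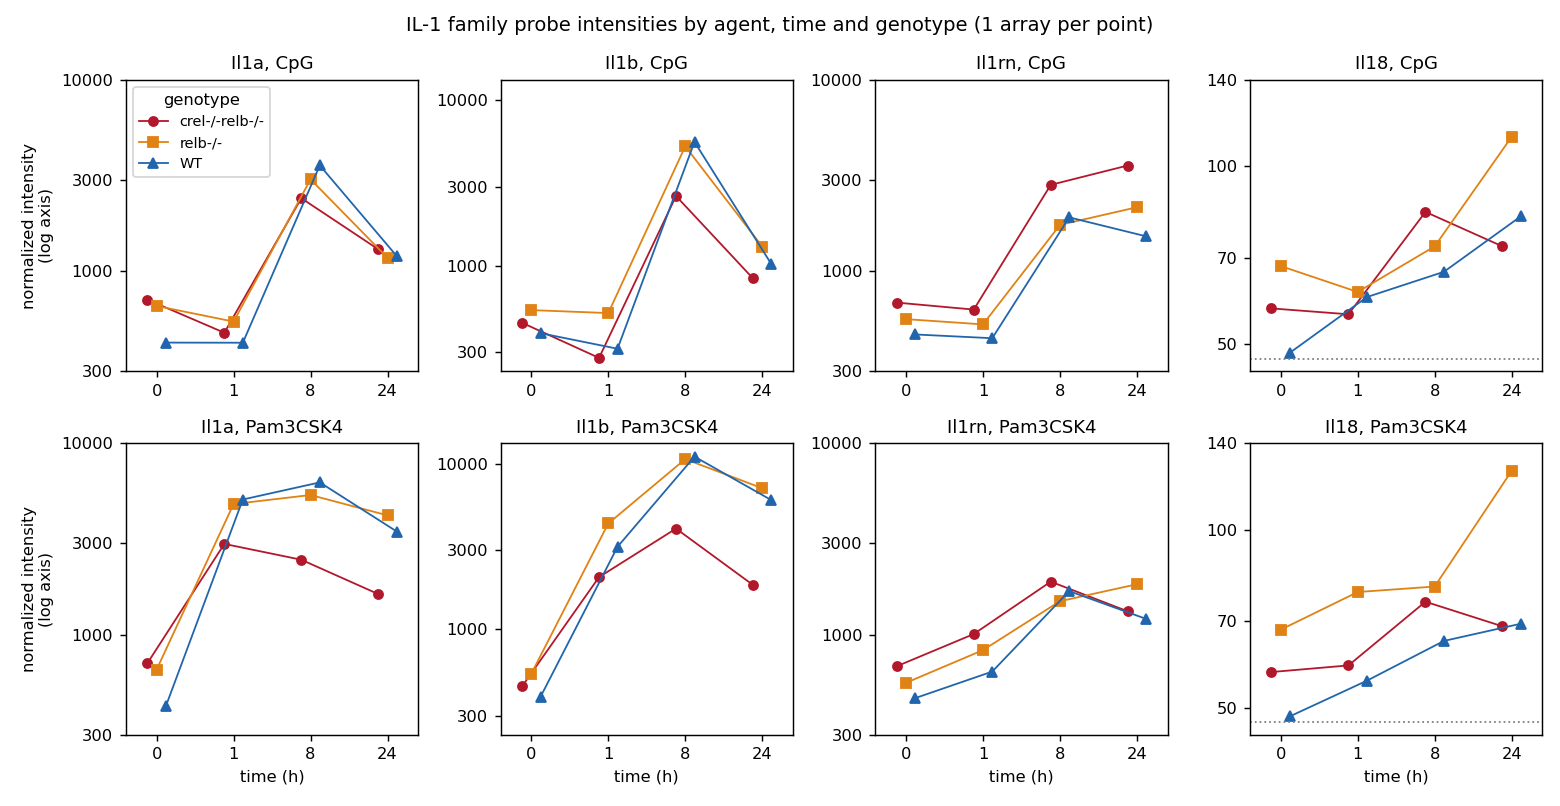
Normalized intensity (log axis) of Il1a, Il1b, Il1rn (brightest probe) and Il18 by time in hours, with evenly spaced times, CpG in the upper row and Pam3CSK4 in the lower row; each point is 1 array, the 0 h arrays appear in both rows, and the dotted line in the Il18 panels is the median of all values, 47.3. The Il18 panels have a narrower scale, and the crel-/-relb-/- points for Il1b lie lowest at every stimulated time.

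Time after stimulation was tested in 1 limma fit of genotype and condition over all 21 arrays, and differences are given on the log2 scale as the estimate ± SE. At 8 h against 0 h all 4 genes were higher, in 6 of 6 combinations of genotype and agent, where 30.9% of the 10587 genes tested were called in either direction and 15% were called higher. Il1b rose by 3.66 ± 0.22 (12.7-fold, adjusted p = 3.44e-11) and Il1a by 2.63 ± 0.23 (6.17-fold, adjusted p = 1.85e-08). Il1rn rose by 1.74 ± 0.15 (3.35-fold, adjusted p = 1.23e-08). Il18 rose by 0.36 ± 0.12 (adjusted p = 0.0289), a call that was lost in 6 of 31 alternative fits, among them the fits without the WT array at 0 h (0.31, adjusted p = 0.138) and without the relb-/- array at 0 h (adjusted p = 0.0839). The median over the 4 genes was 2.18, beside 0.003 over all genes tested. The 6 combinations share the 3 arrays at 0 h and are not independent.

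Between 8 and 24 h both agonist transcripts fell, and the antagonist transcript did not pass the test. Against 0 h all 4 genes were still higher, in a comparison that called 31.9% of genes and 16.9% higher, with Il1b at 2.21 ± 0.22, Il1a at 1.69 ± 0.23, Il1rn at 1.68 ± 0.15 and Il18 at 0.585 ± 0.12. Directly between 8 and 24 h, where 22.2% of genes were called and 9.74% were lower, Il1b fell by 1.45 ± 0.18 (adjusted p = 3.26e-06) and Il1a by 0.94 ± 0.19 (adjusted p = 0.00098), both in 6 of 6 combinations. The change of Il1rn was -0.065 ± 0.12 (adjusted p = 0.773) and that of Il18 was 0.22 ± 0.10 (adjusted p = 0.125), so neither passed the test. Whether each of the 4 genes passed was the same in each fit that left out 1 array, with 1 exception. That was Il18 without the array of crel-/-relb-/- cells after 8 h of CpG (0.30, adjusted p = 0.0407). The sign of the Il1rn change was reversed in 3 of these fits.

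At 1 h the agonist genes responded to Pam3CSK4 and not measurably to CpG. Contrasting the Pam3CSK4 arrays at 1 h with the arrays at 0 h, where 1.53% of genes were called and 1.15% were higher, Il1a was higher by 2.85 ± 0.27 (adjusted p = 6.29e-07) and Il1b by 2.74 ± 0.25 (adjusted p = 4.14e-07). The same contrast for CpG, where 0.387% of genes were called, gave -0.28 ± 0.27 for Il1a (adjusted p = 0.917) and -0.36 ± 0.25 for Il1b (adjusted p = 0.822). Averaged over the agents, where 1.11% of genes were called and 0.831% were higher, both were called higher at 1 h, by 1.28 for Il1a and 1.19 for Il1b, although only 3 of 6 combinations were higher. These averages mix opposite signs, and without the WT array at 0 h neither call held (0.96 with adjusted p = 0.101 for Il1a, 0.98 with adjusted p = 0.0859 for Il1b). Without the relb-/- array at 0 h the Il1b call was lost as well (1.07, adjusted p = 0.0645). Il1rn at 1 h differed from 0 h by 0.53 ± 0.17 with Pam3CSK4 (adjusted p = 0.214) and by -0.09 ± 0.17 with CpG (adjusted p = 0.971). The split by agent was chosen after seeing the data.

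Set directly against each other over all times, CpG gave lower Il1a and Il1b than Pam3CSK4 in 9 of 9 combinations of genotype and time, while 2.26% of genes were called and 1.34% were lower. Il1b was lower with CpG (-2.01 ± 0.14, adjusted p = 2.48e-08), the 3rd smallest p of all genes tested, and so was Il1a (-1.64 ± 0.16, adjusted p = 1.45e-06). The difference for Il1rn was 0.12 ± 0.10 (adjusted p = 0.658) and that for Il18 was -0.01 ± 0.08 (adjusted p = 0.977). At 1 h, where 0.567% of genes were called and 0.482% were lower, the difference of Il1a was -3.13 ± 0.27 (8.74-fold lower with CpG, adjusted p = 4.29e-07) and that of Il1b was -3.10 ± 0.25 (8.57-fold lower, adjusted p = 1.55e-07). Labels give no dose for either agent, so the agents are compared only as they were used.

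The gap between the agents was smaller at 8 h than at 1 h and at 24 h, an order that was not tested. At 8 h, limma called 11 genes, 0.104% of those tested, and 870 at an unadjusted p under 0.05. None of the 4 genes was called, with -0.88 ± 0.25 for Il1b (adjusted p = 0.184), -0.56 ± 0.27 for Il1a (adjusted p = 0.611) and 0.32 ± 0.17 for Il1rn (adjusted p = 0.671). At 24 h, where 2.47% of genes were called, 1.32% higher and 1.14% lower, Il1b was lower with CpG (-2.05 ± 0.25, adjusted p = 0.000112), as was Il1a (-1.23 ± 0.27, adjusted p = 0.0162). Without the relb-/- array at 24 h with CpG, the relb-/- array at 24 h with Pam3CSK4 or the WT array at 24 h with Pam3CSK4, the Il1a call was lost, at -1.08, -1.03 and -1.13 with adjusted p = 0.0627, 0.0787 and 0.083.

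Il1rn moved the other way at 24 h and was higher with CpG in 3 of 3 genotypes, by 0.66 ± 0.17 (adjusted p = 0.0468). This call is fragile, since 19 of 29 alternative fits lost it, and without the noisier array the difference was 0.45 (adjusted p = 0.26). Without the crel-/-relb-/- array at 24 h with Pam3CSK4 it was 0.43 (adjusted p = 0.285). Its size by genotype was 1.43 in crel-/-relb-/-, 0.23 in relb-/- and 0.33 in WT cells.

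**Figure D2:**
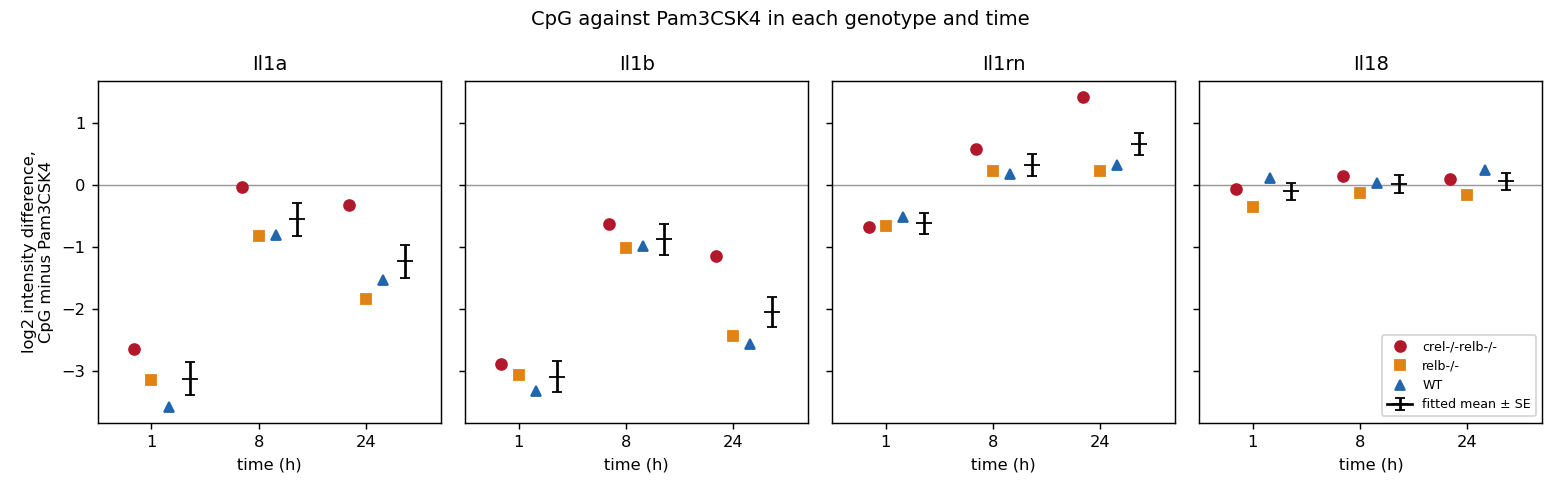
Log2 intensity difference, CpG minus Pam3CSK4, by time in hours for each gene, with 1 point per genotype from 1 array of each agent and, in black, the fitted mean ± SE over the 3 genotypes. Every Il1a and Il1b point lies below 0, and the Il1rn points lie below 0 at 1 h and above 0 at 8 and 24 h.

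In cells lacking c-Rel and RelB, the agonist transcript Il1b was lower and the antagonist transcript Il1rn, on its brightest probe, higher than in WT cells. In crel-/-relb-/- against WT cells, where 15.4% of genes were called, 7.65% higher and 7.74% lower, 1 of the 4 genes was higher, 1 lower and 2 were not called. Il1b was lower (-0.73 ± 0.16, 1.66-fold, adjusted p = 0.00394), lower in 6 of 7 conditions, with differences from -1.70 at 24 h with Pam3CSK4 to 0.21 at 0 h. Il1rn was higher by 0.54 ± 0.11 (1.46-fold, adjusted p = 0.00235), higher in 7 of 7 conditions, with differences from 0.13 (24 h, Pam3CSK4) to 1.23 (24 h, CpG). The median over the 4 genes was -0.15, beside 0.004 over all genes tested. In bulk RNA, fewer cells that make a transcript and less of it per cell cannot be told apart.

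Il1a did not pass this test, with -0.39 ± 0.18 (adjusted p = 0.15) and 4 of 7 conditions lower. Its difference from WT ran from 0.75 at 0 h to -1.34 at 8 h with Pam3CSK4, and without the array at 0 h of crel-/-relb-/- cells (-0.54, adjusted p = 0.0351) or of WT cells (-0.53, adjusted p = 0.0422) it passed. Il18 differed by 0.09 ± 0.09 (adjusted p = 0.586), with 4 of 7 conditions higher. Without the noisier array, crel-/-relb-/- after 24 h of CpG, the calls held, at -0.80 for Il1b (adjusted p = 0.00284) and 0.45 for Il1rn (adjusted p = 0.00508).

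On its brightest probe, the difference of Il1rn from WT exceeded that of Il1b in each condition in crel-/-relb-/- cells. This is given as a description with no test. The 2nd Il1rn probe that passed the filter was not called in this genotype comparison (0.15 ± 0.10, adjusted p = 0.389). The excess on the brightest probe was 0.34 at 0 h, then 0.68, 1.65 and 1.51 at 1, 8 and 24 h with CpG, and 1.26, 1.61 and 1.84 at 1, 8 and 24 h with Pam3CSK4. It was smallest at 0 h and largest at 24 h with Pam3CSK4. In relb-/- cells the same quantity ran from -0.48 to 0.36 and was above 0 in 2 of 7 conditions.

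Relative to WT, relb-/- cells differed in Il18, while the agonist genes did not pass the test. Here 11.7% of genes were called, 6.03% higher, and of the 4 genes only Il18 was, higher by 0.395 ± 0.09 (1.31-fold, adjusted p = 0.00744) and higher in 7 of 7 conditions, from 0.03 (1 h, CpG) to 0.86 (24 h, Pam3CSK4). Il1b differed by 0.30 ± 0.16 (adjusted p = 0.258), Il1a by 0.10 ± 0.18 (adjusted p = 0.782) and Il1rn by 0.24 ± 0.11 (adjusted p = 0.187). Fitted on the 14 arrays of these genotypes alone, Il1b was called higher (0.30 ± 0.09, adjusted p = 0.0281).

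Directly between the mutant genotypes, crel-/-relb-/- minus relb-/-, 19.8% of genes were called, 9.28% lower, and Il1b had its largest genotype difference. Il1b was lower in crel-/-relb-/- cells (-1.03 ± 0.16, 2.04-fold, adjusted p = 0.000113), in 7 of 7 conditions, from -1.94 at 24 h with Pam3CSK4 to -0.25 at 0 h, and it was called in all 32 alternative fits. Il18 was lower (-0.31 ± 0.09, adjusted p = 0.0228) in 6 of 7 conditions, a call lost in 8 of 32 alternative fits, among them those without the noisier array (-0.26, adjusted p = 0.0572) and without the relb-/- array at 24 h with Pam3CSK4 (-0.22, adjusted p = 0.0702). Il1a differed by -0.49 ± 0.18 (adjusted p = 0.055) and was called in 8 of 32 alternative fits. Il1rn differed by 0.30 ± 0.11 (adjusted p = 0.0687) and was called in 6 of 32. The 3 genotype comparisons share arrays, so their values stand side by side and do not support each other.

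**Figure D3:**
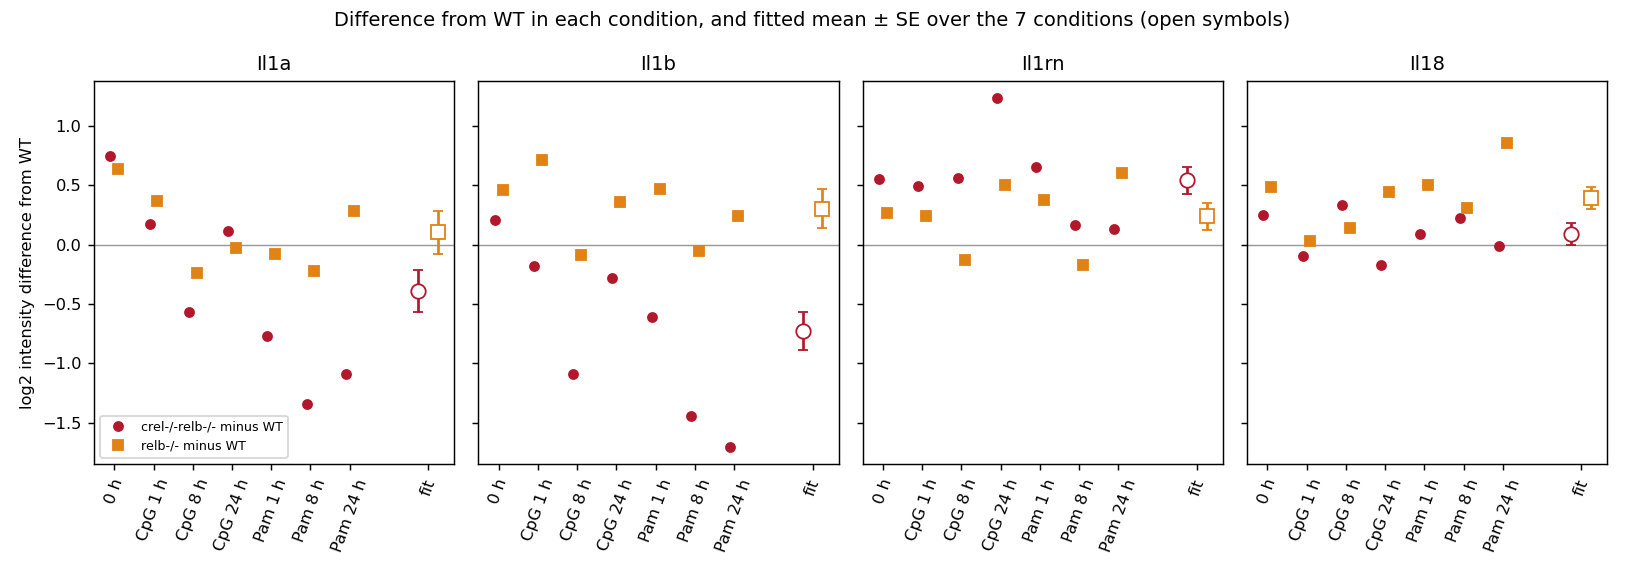
Log2 intensity difference from WT of crel-/-relb-/- cells (circles) and relb-/- cells (squares) in each of 7 conditions, 1 array of each genotype per point, and at the right of each panel the fitted mean ± SE over the conditions (open symbols). The circles lie below 0 for Il1b in 6 of 7 conditions and above 0 for Il1rn in 7 of 7, and the squares lie above 0 for Il18 in 7 of 7.

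Whether the genotype differences grew with stimulation was asked by setting late arrays (8 and 24 h) against early ones (0 and 1 h). On the late arrays alone, where 6.42% of genes were called and 3.43% were lower, Il1b in crel-/-relb-/- minus WT was -1.13 ± 0.18 (adjusted p = 0.00175), and on the early arrays alone, where 13.2% were called, it was -0.19 ± 0.13 (adjusted p = 0.374). For Il1a the values were -0.72 ± 0.20 on late arrays (adjusted p = 0.0493) and 0.05 ± 0.18 on early arrays (adjusted p = 0.896). The difference between late and early did not pass its own test, at -0.93 ± 0.27 for Il1b (adjusted p = 0.169) and -0.77 ± 0.33 for Il1a (adjusted p = 0.432), in a comparison where 0.378% of genes were called. Without the noisier array it passed for Il1b (-1.18, adjusted p = 0.0201).

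The Il1rn difference did not differ detectably between late and early arrays. Late arrays alone gave 0.52 ± 0.18 (adjusted p = 0.115) and early arrays alone, where 7.14% of genes were called higher, 0.57 ± 0.07 (adjusted p = 0.00012), and the difference between them was -0.045 ± 0.24 (adjusted p = 0.982). For relb-/- minus WT, where 0.17% of genes were called in the late-minus-early test, and for crel-/-relb-/- minus relb-/-, where 0.52% were, none of the 4 genes was called. On early arrays alone, relb-/- cells were higher than WT in Il1b (0.55 ± 0.13, adjusted p = 0.0146), Il1rn (0.29 ± 0.07, adjusted p = 0.0207) and Il18 (0.34 ± 0.10, adjusted p = 0.0387), in a fit that called 10.2% of genes and 5.52% higher. On late arrays alone, where 3.95% were called, Il18 was 0.44 ± 0.14 (adjusted p = 0.105) and the others were not called. The fits on late and early arrays alone were chosen after seeing the data.

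Whether the agent changed a genotype difference was tested on the 18 stimulated arrays. Limma called 0 of 10587 genes (0%) in each of the 3 comparisons, with 462 genes for crel-/-relb-/- minus WT, 245 for relb-/- minus WT and 530 for crel-/-relb-/- minus relb-/- at an unadjusted p under 0.05. Il1a had the smallest unadjusted p of all genes for crel-/-relb-/- minus WT, 0.000321, with a difference 0.97 ± 0.21 higher under CpG than under Pam3CSK4 (adjusted p = 0.961). The same quantity was 0.73 ± 0.26 for Il1b (adjusted p = 0.961) and 0.45 ± 0.24 for Il1rn (adjusted p = 0.961).

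Induction within each genotype, as the fold over that genotype's own array at 0 h, is given as a description with 1 array on each side. For Il1b at 8 h with Pam3CSK4 it was 8.98-fold in crel-/-relb-/-, 19.8-fold in relb-/- and 28.3-fold in WT cells. For Il1b at 8 h with CpG it was 5.83-fold in crel-/-relb-/-, 9.76-fold in relb-/- and 14.3-fold in WT cells. The WT folds were the highest of the 3 genotypes at both, and the WT level at 0 h was the lowest. For Il1a at 8 h with Pam3CSK4 the folds were 3.48 in crel-/-relb-/-, 8.18 in relb-/- and 14.8 in WT cells. For Il1rn the order of the genotypes differed between conditions. At 8 h its folds were 4.12 in crel-/-relb-/-, 3.11 in relb-/- and 4.09 in WT cells with CpG, and 2.77, 2.67 and 3.62 in the same genotypes with Pam3CSK4. At 24 h they were 5.20 in crel-/-relb-/- (the noisier array), 3.84 in relb-/- and 3.26 in WT cells with CpG, and 1.94, 3.27 and 2.59 in the same genotypes with Pam3CSK4.

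The 3 Il1rn probes did not give the same result. A 2nd probe passed the filter, at 41.8 to 133 over the arrays, and was higher at 8 h (0.85 ± 0.14, adjusted p = 5.21e-05) and at 24 h (0.75 ± 0.14, adjusted p = 0.000187) than at 0 h, when every passing probe was tested on its own. For crel-/-relb-/- minus WT it gave 0.15 ± 0.10 (adjusted p = 0.389), and for CpG minus Pam3CSK4 at 24 h 0.05 ± 0.16 (adjusted p = 0.934), so neither call of the brightest probe held for it. The remaining probe measured 35.7 to 44.6, never above the median of all values, and was not tested. The sources used here do not say which Il1rn transcript each probe reads.

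Markers of other cell types also differed between the genotypes. Of 12 neutrophil markers, 11 were on the array and 10 above the median on at least 1 array, with Mpo below it on every array; their summed intensity was 2878 to 24674 on crel-/-relb-/-, 1877 to 26056 on relb-/- and 1279 to 23383 on WT arrays. In crel-/-relb-/- against WT cells, where 15.4% of all genes were called, 4 of the 9 tested were higher and 1 lower. The calprotectin subunit genes S100a9 (1.93 ± 0.16) and S100a8 (1.5 ± 0.15), Ltf (1.03 ± 0.16) and Ngp were higher. No size is given for Ngp, because its probe was above the median of all values on 1 of 7 WT arrays. Lcn2, the lipocalin gene, was lower (-0.29 ± 0.09). In relb-/- against WT cells, where 11.7% were called, 3 of the 9 were higher and 2 lower. Of 12 macrophage and monocyte markers, 9 were on the array and all 9 above the median on at least 1 array. Their sums were 3556.5 to 10938 on crel-/-relb-/-, 2855 to 8207 on relb-/- and 3275.5 to 9591 on WT arrays. Of the 8 tested, 3 were higher and 1 lower in crel-/-relb-/- against WT cells (15.4% of all genes called). In relb-/- against WT cells (11.7% called) 2 were higher and 4 lower. Adgre1 (0.28 ± 0.09) and Fcgr1 (0.45 ± 0.15) were the higher ones. The complement genes C1qb (-1.42 ± 0.10) and C1qc (-1.38 ± 0.08) were among the lower ones. In crel-/-relb-/- minus relb-/- (19.8% called) 6 were higher, with C1qb at 1.32 ± 0.10 and C1qc at 1.37 ± 0.08. The 1 lower was Fcgr1 (-0.71 ± 0.15). All 7 markers of T and natural killer cells were on the array, with Gzma below the median throughout, and sums of 364 to 407 on crel-/-relb-/-, 317 to 382 on relb-/- and 539 to 707 on WT arrays. Of 6 tested, 0 were higher and 5 lower in crel-/-relb-/- against WT cells, and 1 was higher and 5 lower in relb-/- against WT cells. The part of these cells in the Il1b, Il1rn and Il18 differences was not tested.

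Of 5 eosinophil markers, 4 were on the array and all 4 above the median on at least 1 array. They summed to 335 to 1540.2 on crel-/-relb-/-, 235 to 933 on relb-/- and 216 to 871 on WT arrays. Of these 4, 2 were called higher in crel-/-relb-/- and 1 in relb-/- against WT cells. Mast cell and basophil markers, 4 of 4 on the array with Ms4a2 below the median throughout, summed to 155 to 179 on crel-/-relb-/-, 145 to 167 on relb-/- and 159 to 185.5 on WT arrays. Only 1 of them was tested, Cpa3, which was called lower in both mutant genotypes against WT (15.4% and 11.7% of all genes called). Its probe was above the median of all values on 1 of 7 crel-/-relb-/-, 1 of 7 relb-/- and 4 of 7 WT arrays, so no size is given. Dendritic cell markers summed to 11996 to 22335 on crel-/-relb-/-, 12591 to 17180 on relb-/- and 14886 to 21047 on WT arrays. Of the 9 dendritic cell markers tested, 2 were higher and 5 lower in crel-/-relb-/- against WT cells, and 0 were higher and 3 lower in relb-/- against WT cells, beside 15.4% and 11.7% of all genes called. Of these 6 lists, only that of T and natural killer cells had mutant sums that did not overlap the WT sums. On relb-/- arrays, Cd3d was above the median of all values on 3 of 7 arrays, Cd3e on 1, Cd3g on 5, Trat1 on 0, Nkg7 on 1 and Klrd1 on 7. The size of the gap is therefore limited by dim probes. How often sums of other genes separate in this way was not tested. Each range pools all times, and bright markers changed with time. From 0 h to 24 h, Lcn2 went from 384.7 to 555 up to 7235.2 to 20842.2. Adgre1 went from 742.9 to 1253 up to 3557.3 to 6508.7, and Prg2 from 538.9 to 1005.2 down to 52 to 125.3. Overlap of the neutrophil, macrophage and eosinophil sums therefore cannot decide whether the genotypes differed.

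Of 36 other genes of the interleukin-1 system tested, in 4 lists, 5 were called in crel-/-relb-/- against WT cells (13.9%, beside 15.4% of all genes) and 6 in relb-/- against WT cells (16.7%, beside 11.7% of all genes). These shares lie near those of all genes, and nothing particular to the lists is read from them. Of 9 receptors and decoys, 8 were tested, with 1 higher and 1 lower in crel-/-relb-/- against WT cells (median -0.004, beside 0.004 over all genes) and 0 higher and 2 lower in relb-/- against WT cells (median -0.019, beside -0.007). Il18r1, the ligand-binding chain of the interleukin-18 receptor, was higher by 0.53 ± 0.09 in crel-/-relb-/- cells (adjusted p = 0.000188). It was also called lower in relb-/- cells, but its probe was at or below the median of all values, 47.3, on 7 of 7 relb-/- and 2 of 7 WT arrays, so no size is given for that difference. The probe measured 59.8 to 96.2 on crel-/-relb-/-, 35.3 to 42 on relb-/- and 42.7 to 55.6 on WT arrays. Il1rl2, a receptor chain for interleukin-36, differed from WT by -0.17 ± 0.06 in crel-/-relb-/- (adjusted p = 0.0484) and -0.18 ± 0.06 in relb-/- cells (adjusted p = 0.0415).

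Among 20 genes of the inflammasome and of cytokine processing, 13 were tested, with 1 higher and 0 lower in crel-/-relb-/- against WT cells (median -0.062), where 15.4% of all genes were called. In relb-/- against WT cells, where 11.7% were called, 2 were higher and 1 lower (median 0.03). Aim2, a sensor of cytosolic DNA, was higher by 0.53 ± 0.06 in crel-/-relb-/- cells (adjusted p = 4.18e-06), at 87.8 to 114 against 59.9 to 70.9 on WT arrays. Casp4, a caspase of the non-canonical inflammasome, was higher by 0.62 ± 0.13 in relb-/- cells (adjusted p = 0.00336). Casp1, which cuts the precursors of interleukin-1β and interleukin-18, was called in neither, and in crel-/-relb-/- minus relb-/- it was lower (-0.29 ± 0.08, adjusted p = 0.0112). Txnip, whose protein binds thioredoxin, differed by 0.29 ± 0.08 in relb-/- cells (adjusted p = 0.0196). The neutrophil protease gene Elane was the 1 called lower, with no size given because its probe read 42.3 to 45.8 on relb-/- arrays, below the median of all values, against 45.1 to 56.4 on WT arrays.

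Of 13 signalling adaptors, 12 were tested, with 0 higher and 1 lower in crel-/-relb-/- against WT cells (median 0.037, with 15.4% of all genes called) and 0 of either in relb-/- against WT cells (median 0.009, with 11.7% called). Tab2, which links TRAF6 to the kinase TAK1, was the 1 lower (-0.46 ± 0.07, adjusted p = 0.000102), at 376 to 501 against 511 to 674 on WT arrays. Of 6 further ligands of the family, 3 were tested. Il1f6, which encodes interleukin-36α, was higher by 0.15 ± 0.05 in crel-/-relb-/- (adjusted p = 0.0393) and by 0.165 ± 0.05 in relb-/- cells (adjusted p = 0.0334). Its probe was above the median of all values on 3 of 7 crel-/-relb-/-, 3 of 7 relb-/- and 1 of 7 WT arrays, so these sizes are not reliable.

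**Figure D4:**
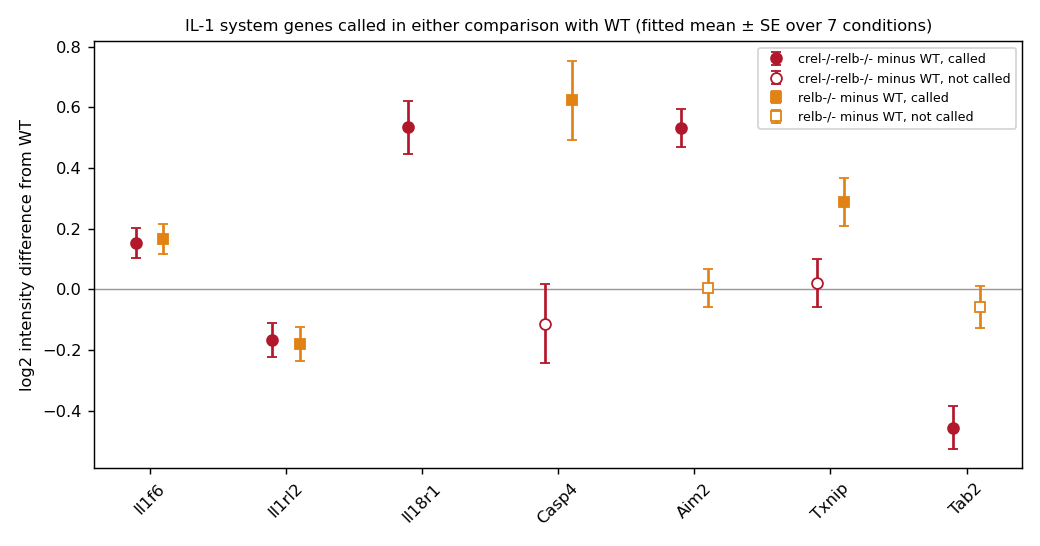
Fitted log2 intensity difference from WT ± SE over 7 conditions, for the genes of the 4 interleukin-1 system lists that were called in either mutant genotype; filled symbols are called at an adjusted p under 0.05 and open ones are not. Il18r1 in relb-/- cells and Elane are left out, because their probes were at or below the median of all values on every relb-/- array. Il1f6 is shown although its probe was above that median on only 1 of 7 WT arrays. Aim2 and Casp4 are each called in 1 of the 2 genotypes only, a difference that is tested for these genes by crel-/-relb-/- minus relb-/- (0.53 for Aim2, -0.74 for Casp4).

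At 8 h against 0 h, 16 of the 36 genes tested from these 4 lists were called (44.4%), beside 30.9% of all genes. At 8 h against 0 h, 5 of 13 inflammasome and processing genes were higher and 3 lower (median 0.11, beside 0.003 over all genes), 0 of 8 receptors and decoys were higher and 2 lower, and 3 of 12 adaptors were higher and 2 lower. Casp1 rose by 1.17 ± 0.10 (adjusted p = 1.36e-08), Casp4 by 0.79 ± 0.17 (adjusted p = 0.00125) and the pyrin gene Mefv by 0.67 ± 0.10 (adjusted p = 1.52e-05). The Mefv probe measured 40.6 to 47.4 at 0 h, with 1 of 3 arrays above the median of all values. Pycard, which encodes the inflammasome adaptor ASC, fell by 0.48 ± 0.15 (adjusted p = 0.0183). Il1r2, the decoy receptor that binds interleukin-1 without signalling, fell by 1.16 ± 0.13 (adjusted p = 3.18e-07), to 42.7 to 56.8 at 8 h, with 4 of 6 arrays above the median of all values, and Il1rap, the shared receptor chain, by 0.27 ± 0.07 (adjusted p = 0.00773). Irak3, a kinase-like inhibitor of interleukin-1 and Toll-like receptor signalling, rose by 1.92 ± 0.11 (adjusted p = 2.21e-11).

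Across the 21 arrays, Il1a and Il1b had a Pearson correlation of 0.96, Il1b and Il1rn of 0.57, Il1a and Il1rn of 0.53, Il1rn and Il18 of 0.65, Il1b and Il18 of 0.44, and Il1a and Il18 of 0.37, as a description, since the arrays share conditions and genotypes. Among the other 10586 genes tested, the most like Il1a were the neutrophil chemokine gene Cxcl2 (0.96), Il1b (0.96) and the cytokine gene Il6 (0.91). The most like Il1b were Il1a (0.96), the pentraxin gene Ptx3 (0.94) and Il6 (0.94). For Il1rn they were Rnf135 (0.94), Abcc5 (0.94) and Gch1 (0.94), and for Il18 Npc2 (0.89), H2-T10 (0.87) and Nat2 (0.87). No gene was among the first 3 of both an agonist gene and Il1rn or Il18. The correlations between the members already fix this outcome, so it adds nothing to them.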

How the data were processed

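Gene expression was measured in 21 samples of bone marrow-derived dendritic cells. The values are linear probe intensities that the authors normalized before they deposited them, by a method the sources used here do not name. Array medians lay between 47.1 and 47.4 and the lowest intensity was 24.8, a floor that understates the folds of dim genes. The labels' protocols record column extraction and biotinylated cRNA. The number of arrays limits the precision. Detection p-values were not used. A 2nd deposited table was not used, because its 21 columns of sample values match no sample's labels.

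Gene names come from the annotation given for the array platform. For 23962 probes the gene identifier was found in RefSeq and RefSeq's symbol was used, whether or not it differed. Of all probes, 23978 had 1 symbol, 0 had several and 1719 stayed unnamed. A probe was tested if its 3rd highest log2 value over the 21 arrays exceeded the median of all deposited values, 47.3, and each gene was represented by its brightest passing probe, which left 10587 of 16593 genes (63.8%). The deposited intensities were taken to log2 without further normalization and fitted with limma 3.58.1 in R 4.3.3 (lmFit, eBayes with an intensity trend), with Benjamini-Hochberg adjustment over all genes tested, two-sided, and a call at an adjusted p under 0.05. Genotype, time and agent came from an additive model of genotype and 7 conditions (12 residual degrees of freedom), late against early from an interaction with genotype (10) and agent by genotype from the 18 stimulated arrays (8), giving 17 comparisons. The fits were run on simulated data with independent noise around flat gene means and planted shifts. Such data check the code and do not show how the fits behave on these arrays. Single conditions, with 1 array per genotype, were not tested.

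The 4 genes, the gene lists and the markers were chosen with earlier results of these data known. Named genes are the 4 members, Relb and Rel, list genes called in the comparison described, and the 3 genes most correlated with each member; named cell type markers other than the absent ones were chosen after their values were seen, as were the list genes named where they were not called. Alternatives were leaving out each array, other filters, normalizations, background treatments and probe choices, no trend, and fewer arrays. Promoters and gene starts are RefSeq's, GRCm38.p6. No 2 arrays held identical values.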

Additional observations from a re-analysis of the deposited data

How the results depend on the processing

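Of 2032 values of the 4 genes under alternative settings, 1911 kept their direction and their side of the threshold, 42 lost a call, 22 gained one and 57 changed sign. Among the results behind these 57, Il1a (-0.283) and Il1b (-0.359), both at 1 h with CpG alone, were the ones called on all arrays. At 1 h with CpG alone Il1rn was -0.092, on early arrays alone Il1a in crel-/-relb-/- minus WT was 0.05, and on late arrays alone Il1a in relb-/- minus WT was -0.053. Leaving out each array gave these ranges across 0. Il1a in relb-/- minus WT ran from -0.037 to 0.208 and Il1rn at 24 h minus 8 h from -0.175 to 0.05. Il18 in CpG minus Pam3CSK4 ran from -0.059 to 0.056 over all times, -0.212 to 0.002 at 1 h, -0.131 to 0.162 at 8 h and -0.073 to 0.257 at 24 h. Late minus early, in crel-/-relb-/- minus WT, relb-/- minus WT and crel-/-relb-/- minus relb-/- in this order, Il1rn ran from -0.23 to 0.152, -0.292 to 0.03 and -0.137 to 0.247, and Il18 from -0.116 to 0.12, -0.057 to 0.239 and -0.225 to 0.071. The agent difference ran from -0.246 to 0.083 for Il18 in crel-/-relb-/- minus WT, and in relb-/- minus WT from -0.113 to 0.225 for Il1a, -0.072 to 0.355 for Il1b and -0.254 to 0.152 for Il1rn. Il1b lost its call in crel-/-relb-/- minus WT on early arrays alone. Il1rn there and Il18 in relb-/- minus WT lost theirs on late arrays alone but were called on early arrays alone, for a reason that was not tested. Counts of all genes called stayed within 1.5 times in 438 of 508 settings. On late arrays alone they were 680 against 1629 for crel-/-relb-/- minus WT, 418 against 1236 for relb-/- minus WT, and 1025 against 2099 for crel-/-relb-/- minus relb-/-, and with CpG alone 41 against 118 at 1 h. Leaving out each array in turn gave 65 to 183 genes at 1 h against 0 h. For CpG minus Pam3CSK4 it gave 140 to 283 over all times, 32 to 73 at 1 h, 3 to 123 at 8 h and 108 to 424 at 24 h. Late minus early it gave 13 to 60 for crel-/-relb-/- minus WT, 4 to 26 for relb-/- minus WT and 18 to 64 for crel-/-relb-/- minus relb-/-. The agent difference of crel-/-relb-/- minus WT ran from 0 to 1. Where no cause is named, the cause was not tested. No paired analysis was possible beyond the pairing of genotypes by condition, which every genotype fit already holds as a term, because the replicate numbers only name arrays. Il18 lies near the median of all values, which limits its folds.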

Other observations

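At 24 h against 8 h, 4 of 36 tested genes of the interleukin-1 system lists were higher and 5 lower (25% called, beside 22.2% of all genes). P2rx7, an ATP-gated channel known as a trigger of the NLRP3 inflammasome, was higher at 24 h by 0.36 ± 0.05 (adjusted p = 4.19e-05) and Naip5, a sensor of bacterial flagellin, by 0.47 ± 0.10 (adjusted p = 0.00112), while Mefv (-0.33 ± 0.08, adjusted p = 0.00417) and Nlrp3 (-0.24 ± 0.07, adjusted p = 0.0231) were lower. Il18bp, the secreted binding protein that neutralises interleukin-18, was higher by 0.23 ± 0.07 (adjusted p = 0.0186). The kinase gene Irak2 was higher by 0.42 ± 0.08 (adjusted p = 0.000354) and Irak1 lower (-0.35 ± 0.08, adjusted p = 0.00253), as were Map3k7, which encodes the kinase TAK1 (-0.25 ± 0.09, adjusted p = 0.0471), and Il1f6 (-0.215 ± 0.05, adjusted p = 0.00505), whose probe was above the median of all values on 2 of 6 arrays at 24 h.

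Between the agents, Nlrp3 was lower with CpG than with Pam3CSK4 at 1 h (-0.615 ± 0.10, adjusted p = 0.00321). It was the 1 of 13 inflammasome and processing genes called there, in a comparison that called 0.567% of all genes, and Il1a and Il1b were lower with CpG at the same time. Irak3 was lower with CpG at 24 h (-0.555 ± 0.13, adjusted p = 0.0233), and Tab1, an adaptor of the kinase TAK1, was higher by 0.44 ± 0.11 (adjusted p = 0.0327).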
